A study of Mus musculus with 6 samples.

Results

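Interferon-stimulated genes encode the antiviral proteins that cells make when type I interferon, or to a lesser degree interferon-gamma, is sensed. Type I interferon binds a receptor of the chains IFNAR1 and IFNAR2, the kinases JAK1 and TYK2 pass the signal on, and a factor that holds STAT2 and IRF9 binds interferon-stimulated response elements (ISREs) in promoters. Interferon-gamma acts on a different element, the gamma-activated site (GAS). ILC1s, the group 1 innate lymphoid cells of the liver, are themselves a source of interferon-gamma, and many cells keep some of these genes on at a low tonic level.

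A list of 32 interferon-stimulated antiviral genes was followed by gene symbol, and all 32 were found among the 23942 genes of the table. The values are from 6 RNA-seq libraries of lymphocytes labelled as ILC1s from mouse liver. The 3 naive libraries were given solvent and belong to day 0, and the 3 memory libraries carry the treatment label OXA, which the labels do not spell out, and belong to day 30. The sources used here give no strain, genotype, age, sex or sorting gate. They do not say that the libraries came from separate mice, so a p-value reflects library-to-library spread, which may be technical. Treatment and day differ together, so their effects cannot be told apart.

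Library depth was 18697093 to 23795266 recovered reads. Of 10 ILC1 markers, 9 were not called and the chemokine receptor gene Cxcr6 was lower in memory, and the natural cytotoxicity receptor gene Ncr1 was at 488 RPKM in naive and 505 RPKM in memory libraries. Transcripts used as markers of other cells differed between the groups. The summed level of 18 macrophage and monocyte markers was 60.6 to 65.9 RPKM in naive and 516 to 545 RPKM in memory libraries. The macrophage lysozyme gene Lyz2, with values given below, made up most of this sum in both groups. Of the 17 markers tested, 13 were called higher, among them Fcgr1, which passed the filter through its memory libraries. None of the 18 had 0 reads throughout a group, and the median log2 change was 0.95. The summed level of 9 dendritic cell markers was 47.8 to 52.7 RPKM in naive and 332 to 335 RPKM in memory libraries, with Flt3 and Clec9a at 0 in every naive library. Hepatocyte markers summed to 26.6 RPKM in naive and 38.7 RPKM in memory libraries (2 of 7 called higher). The calls also took in 3 of 7 NK cell markers as higher (Itgam, Zeb2 and S1pr5). The other NK cell markers tested, Eomes, Itga2, Prf1 and Klra8, were not called, with log2 changes of 0.28, 0.02, -0.1 and -0.24. T cell markers included 2 of 7 called lower (Tcrg-C1 and Cd3g). Set beside these counts, limma calls covered 3.2% (higher) and 0.972% (lower) of the whole tested set. In bulk RNA, more (or fewer) cells of a type and more (or less) RNA per cell cannot be told apart. Macrophages and monocytes also express interferon-stimulated genes, and the part of these cells in the changes below was not tested.

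The promoters show what the list shares in sequence. The ISRE was searched as GAAA, then any 2 bases, then GAAA, and the GAS as TTCNNNGAA, on both strands, in RefSeq windows from 250 bases before to 50 bases after each annotated start (GRCm38.p6, the assembly of mm10). Windows were matched for 23 of the 32 genes. An ISRE match was in the windows of 13 of these 23 genes (56.5%), against 3.99% of 27025 genes with a window. A GAS match was in 6 of 23 (26.1%), against 9.55%. The stretches below are shown because they pair genes with different calls. Ifit3 was called higher and Ifit1, in the same cluster, was not. Irf1 was called higher, a call lost with any library left out, and Isg15 was not called. Each stretch runs over the 200 bases before the annotated start, 5′ to 3′ along the gene's strand, with ISRE and GAS matches in capitals. They lie at chr19:34583329-34583528 (plus strand), chr19:34640689-34640888 (plus strand), chr11:53769814-53770013 (plus strand) and chr4:156200819-156201018 (minus strand).
Ifit3: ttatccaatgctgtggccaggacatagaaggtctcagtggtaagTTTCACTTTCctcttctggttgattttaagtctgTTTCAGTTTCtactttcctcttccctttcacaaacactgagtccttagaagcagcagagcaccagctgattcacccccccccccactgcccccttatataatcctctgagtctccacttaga
Ifit1: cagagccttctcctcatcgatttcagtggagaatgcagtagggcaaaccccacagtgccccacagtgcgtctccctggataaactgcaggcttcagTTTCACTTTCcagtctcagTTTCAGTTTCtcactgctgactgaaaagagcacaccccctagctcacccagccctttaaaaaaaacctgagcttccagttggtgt
Irf1: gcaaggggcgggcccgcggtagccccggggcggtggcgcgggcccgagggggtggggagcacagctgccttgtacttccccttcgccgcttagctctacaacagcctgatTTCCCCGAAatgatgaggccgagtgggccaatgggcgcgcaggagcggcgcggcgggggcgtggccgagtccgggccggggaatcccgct
Isg15: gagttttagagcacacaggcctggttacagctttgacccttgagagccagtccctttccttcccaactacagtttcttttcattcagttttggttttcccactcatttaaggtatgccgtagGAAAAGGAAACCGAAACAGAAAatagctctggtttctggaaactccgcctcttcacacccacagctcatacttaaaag
The tested gene with the largest log2 change, Ifitm3, had its matches just after the annotated start, at chr7:141010716-141010742 (minus strand), where a GAS lies between 2 ISREs and overlaps the second of them.
Ifitm3: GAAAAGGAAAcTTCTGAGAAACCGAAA

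The pair Ifit3 and Ifit1 carried the same 2 matches, TTTCACTTTC and TTTCAGTTTC, beginning 156 and 122 bases before the start of Ifit3 and 104 and 85 bases before that of Ifit1. Irf1 had a GAS match 90 bases before its start and no ISRE match. In Isg15, 3 ISRE matches overlapped each other, beginning 78, 72 and 66 bases before the start. Among genes called higher in memory, 2 of 4 with a window had an ISRE match (Ifit3 and Ifitm3) and 2 had none in this window (Irf1 and Oasl2). Among tested genes not called, 11 of 17 had an ISRE match. A GAS match was in 2 of the 4 called genes (Irf1 and Ifitm3) and in 4 of the 17 not called. No window was matched for the other called genes, Mx1 and Ly6a.

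In naive libraries the mean levels of the 32 genes ran from 0.0372 to 80.9 RPKM. The highest were Irf1, Ly6e and Trim30a at mean levels of 80.9, 69.1 and 43.4 RPKM, followed by Zbp1 at 28.1 and Ddx58 at 21.7. The lowest were Ifi44, Ifitm1 and Oas2 at 0.5, 0.234 and 0.0372 RPKM, and their means over all 6 libraries were under 0.5 RPKM, so they were not tested. Of 31 neighbours in this order of naive levels, 20 had overlapping ranges, among them Ddx58, Bst2, Isg15, Irf7 and Ifit3 between 16.2 and 23.8 RPKM. RPKM is scaled by exon length, so levels of different genes can be set side by side, though only roughly. Reads shared between similar genes or overlapping exons, named below, may shift the level of a gene.

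**Figure D1:**
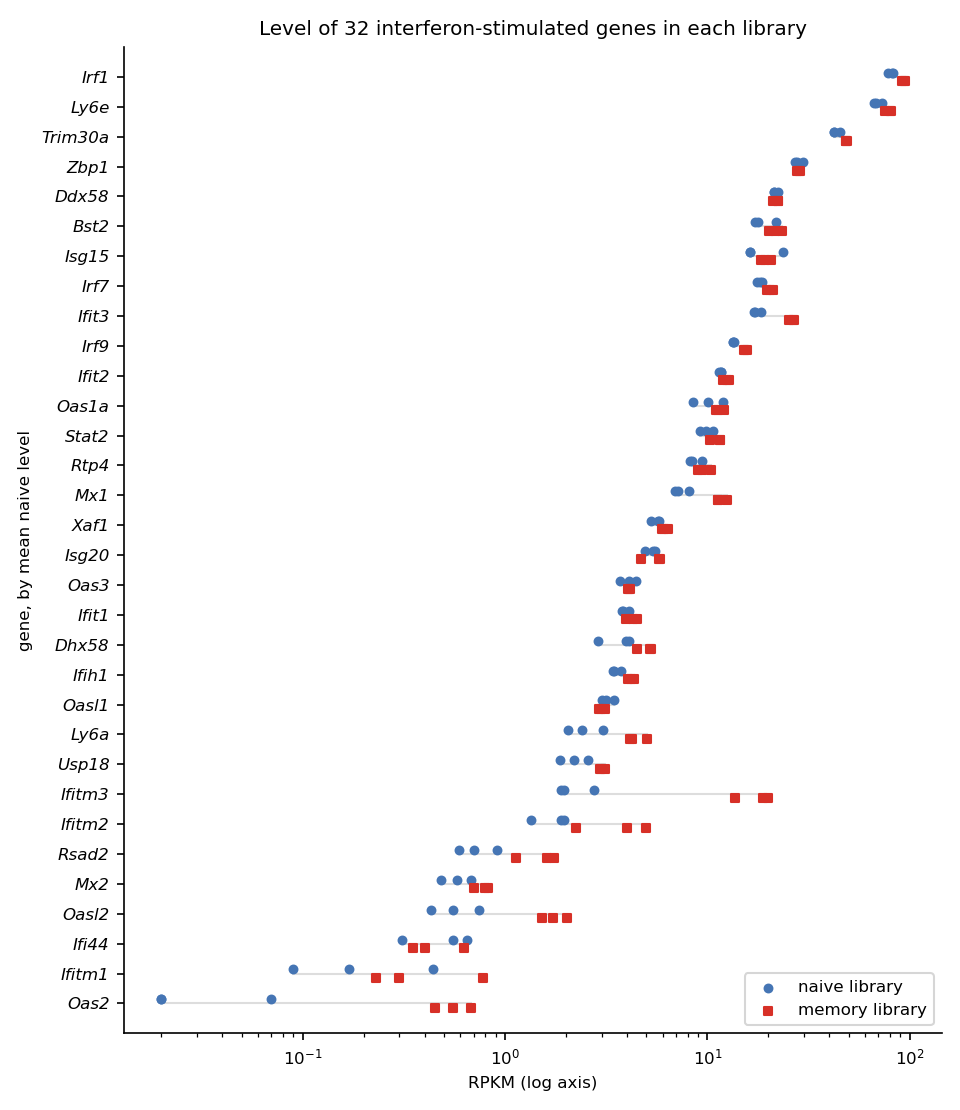
RPKM (log axis) of the 32 genes in each naive library (blue circles) and memory library (red squares), ordered by mean naive level, with a grey line over the whole range of a gene. Ifitm3, Oas2 and Oasl2 show wide gaps between the groups, while Zbp1, Ddx58 and Oas3 lie on top of each other.

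Of the 29 genes tested, 6 were called higher in memory, that is with a limma adjusted p under 0.05 over all genes: Ifitm3, Ifit3, Mx1, Oasl2, Irf1 and Ly6a. Over all genes tested, 4.17% were called, 3.2% as higher and 0.972% as lower in memory. Voom on recovered reads called 10 of the 29 higher, against 5.76% of all genes. None of the 29 was called lower by limma (0 also at an unadjusted p under 0.05, and 0 by voom on recovered reads). At an unadjusted p under 0.05, 15 of the 29 were higher. Over all 13793 genes tested, 1550 were higher and 868 lower at that unadjusted p. The fitted change was positive for 28 of 29, against 54.6% of all genes tested, with a median of 0.17 on the log2(RPKM + 1) scale against 0.02 for all genes. In 19 of the 32 every memory library was above every naive library, against 11.4% of all genes of the table, and in 13 the groups overlapped. Among those tested this held for 18 of 29, against 14.9% of all genes tested. In none was every memory library below every naive one, which held for 9.24% of all genes tested. In each of the 29 the naive mean alone was above 0.5 RPKM, the lowest being 0.573 RPKM for Oasl2. The 32 genes summed to 418 ± 8.89 RPKM in naive and 497 ± 8.43 RPKM in memory libraries (SD, n = 3 each). Of that gain of 78.3 RPKM, 19.6% came from Ifitm3, and 58.9% came from the 4 largest gains, those of Ifitm3, Irf1, Ly6e and Ifit3.

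**Figure D2:**
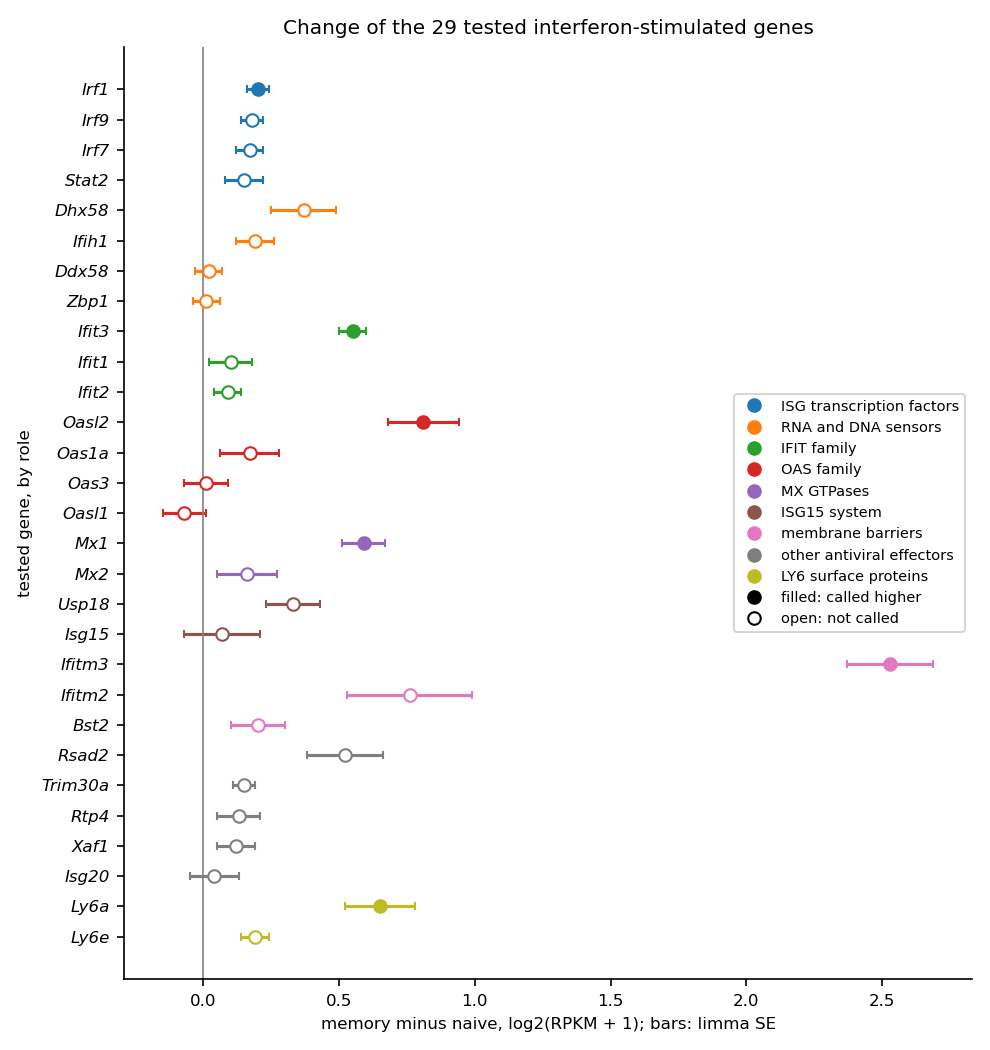
Change of the 29 tested genes, as the memory mean less the naive mean of log2(RPKM + 1), with the standard error from limma, grouped by role (colour). Filled points are the 6 genes called higher, and Ifitm3 at 2.53 stands apart from the others, which lie between -0.07 and 0.81.

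The membrane barriers held the largest rise. IFITM proteins sit in cell and endosome membranes and block the fusion of enveloped viruses. Ifitm3, the endosomal member (chromosome 7, 141009586 to 141010770, mm10), was at 1.89, 2.76 and 1.95 RPKM in naive libraries and at 13.75, 18.84 and 19.99 RPKM in memory libraries. The groups were far apart, with 24 to 38 reads in naive and 198 to 304 reads in memory libraries. The mean rose from 2.2 ± 0.481 to 17.5 ± 3.32 RPKM, a log2 change of 2.53 (SE 0.16, limma adjusted p = 0.000383), and the call held with each library left out. Ifitm3 is strongly expressed by myeloid cells, and its rise stood beside that of the macrophage lysozyme gene Lyz2, from 37.8 to 448 RPKM, and of the colony-stimulating factor receptor gene Csf1r, from 1.42 to 11.1 RPKM. The part of macrophages and monocytes in the rise of Ifitm3 was not tested.

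Ifitm2, a close relative in the same cluster on chromosome 7, was at 1.96, 1.35 and 1.88 RPKM in naive libraries and 4.02, 5.0 and 2.23 RPKM in memory libraries. The groups did not overlap, but memory replicate 3 was close to the naive values, and the log2 change of 0.76 (SE 0.23) was not called (limma adjusted p = 0.152). Without memory replicate 3 it was called (adjusted p = 0.0331). Ifitm1, the plasma membrane member, had 2 to 9 reads in naive and 6 to 17 reads in memory libraries and was not tested. The ratio of Ifitm3 to Ifitm2 was 0.966, 2.04 and 1.04 in naive and 3.42, 3.77 and 8.96 in memory libraries. IFITM genes are similar in sequence, so reads of one may have been assigned to another or lost. Exons of Ifitm2 also overlap RP24-243J4.5 on the same strand, so some of its reads may belong to that gene. Bst2, which encodes tetherin, the protein that holds budding virions at the cell surface, was at 17.77, 21.78 and 17.19 RPKM in naive and 20.22, 21.64 and 23.38 RPKM in memory libraries, and the groups overlapped (log2 change 0.2, adjusted p = 0.364).

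Among the IFIT genes, a family in which IFIT1 binds viral RNA lacking the marks of host messages, the change was uneven. Ifit3 (chromosome 19, 34583531 to 34588731) was at 17.04, 18.45 and 17.27 RPKM in naive and 26.46, 26.93 and 25.29 RPKM in memory libraries. All memory libraries were above all naive ones, with little spread inside either group. The log2 change was 0.55 (SE 0.05, limma adjusted p = 0.00167), and the call held with each library left out (adjusted p up to 0.0145).

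Ifit1 was at 3.79, 4.09 and 3.81 RPKM in naive and 3.97, 4.3 and 4.51 RPKM in memory libraries, and the groups overlapped. Ifit2 was at 11.64, 11.67 and 11.41 RPKM in naive and 12.48, 12.72 and 11.91 RPKM in memory libraries. Neither was called, with log2 changes of 0.1 (SE 0.08) and 0.09 (SE 0.05) and adjusted p of 0.55 and 0.423. The ratio of Ifit3 to Ifit2 was 1.46 to 1.58 in naive and 2.12 in each memory library, while that of Ifit2 to Ifit1 overlapped between the groups (2.85 to 3.08 and 2.64 to 3.14). Ifit3b, a near copy of Ifit3 in the same cluster, was at 2.6 RPKM in naive and 3.8 RPKM in memory libraries (log2 change 0.41, adjusted p = 0.083), and reads of these 2 genes may have been shared.

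The MX genes encode dynamin-like GTPases that trap viral nucleocapsids. Mx1 (chromosome 16, 97447035 to 97462907) was at 6.95, 7.17 and 8.14 RPKM in naive and 12.56, 11.27 and 11.22 RPKM in memory libraries. Its mean rose from 7.42 ± 0.63 to 11.7 ± 0.76 RPKM, a log2 change of 0.59 (SE 0.08, limma adjusted p = 0.00867). The call held with each library left out (adjusted p up to 0.0451). Many inbred strains carry a disrupted Mx1, and the strain here is not given in the sources used, so the value is of RNA only. Mx2 was low, at 0.68, 0.58 and 0.48 RPKM in naive and 0.82, 0.8 and 0.7 RPKM in memory libraries. The groups of Mx2 lay close together without overlapping, and it was not called (log2 change 0.16, adjusted p = 0.52). The GENCODE M21 annotation lists Mx2 as a polymorphic pseudogene, so its value too is of RNA only.

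The OAS genes encode enzymes that make 2′-5′-linked oligoadenylates on double-stranded RNA and so activate RNase L, and the OASL proteins are relatives. Oasl2 (chromosome 5, 114896936 to 114912234) was at 0.43, 0.55 and 0.74 RPKM in naive and 2.03, 1.72 and 1.53 RPKM in memory libraries. The groups were apart, on 51 to 100 reads in naive and 193 to 275 reads in memory libraries. The log2 change was 0.81 (SE 0.13, limma adjusted p = 0.0185), and the call ended when the first or second library of either group was omitted (adjusted p up to 0.0833). On the read scale, where the pseudocount weighs less, voom gave a log2 change of 1.63 (adjusted p = 3.85e-06). Its neighbour Oasl1, the gene of an inhibitor of IRF7 translation in the mouse, was at 3.16, 3.03 and 3.45 RPKM in naive and 3.12, 2.9 and 2.99 RPKM in memory libraries. The groups of Oasl1 overlapped, and it was the single tested gene of the list with a negative fitted change (-0.07, SE 0.08, adjusted p = 0.704). The ratio of Oasl2 to Oasl1 was 0.136 to 0.215 in naive and 0.509 to 0.65 in memory libraries.

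Oas2 was nearly silent in naive libraries, with 2, 6 and 2 reads, and had 64, 48 and 49 reads in memory libraries. These are levels of 0.0372 and 0.562 RPKM, under the filter, and with no filter Oas2 was called higher (log2 change 0.59 on the log2(RPKM + 1) scale, adjusted p = 0.0131), as were 1.76% of all genes. Oas1a was at 12.0, 10.07 and 8.51 RPKM in naive and 11.01, 12.15 and 11.33 RPKM in memory libraries and Oas3 at 4.09, 4.44 and 3.68 and 4.14, 4.07 and 4.08 RPKM. Both overlapped between the groups, with log2 changes of 0.17 (adjusted p = 0.511) and 0.01 (adjusted p = 0.972), and the sign for Oas3 turned under quantile normalization and median ratio scaling. Oas1a belongs to a cluster of similar genes, so its reads may have been shared.

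**Figure D3:**
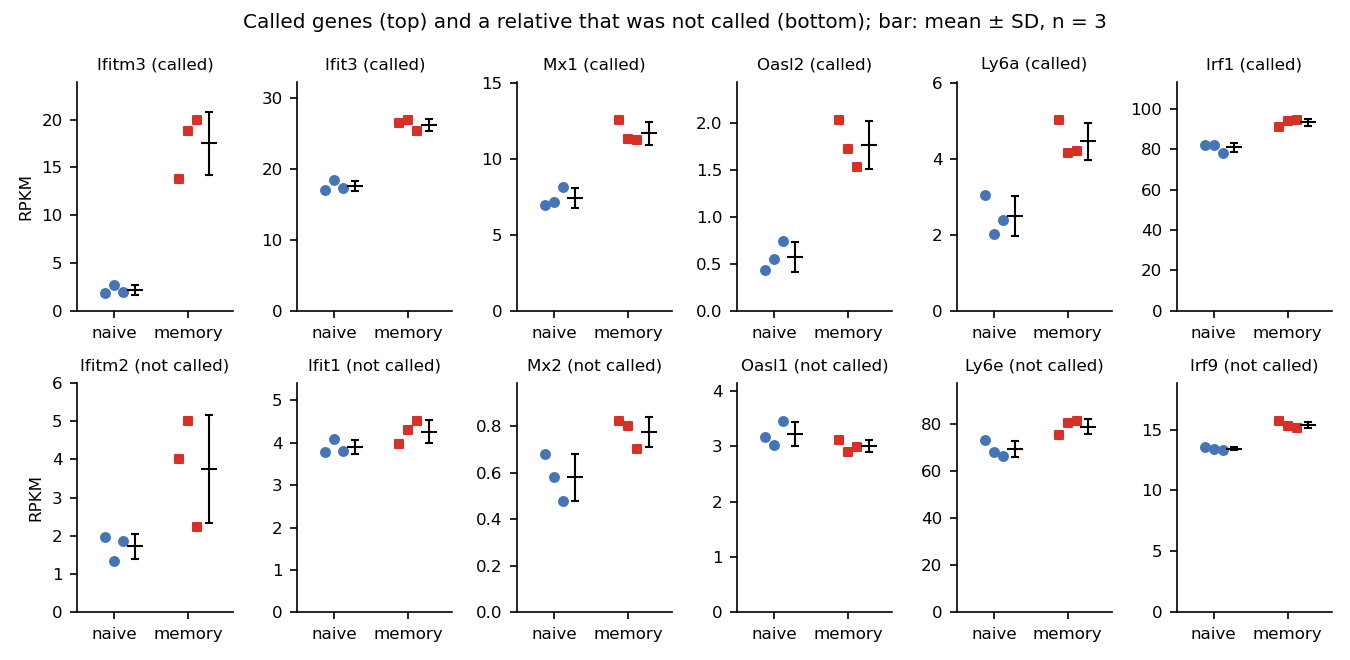
RPKM by library (points) with mean ± SD (bars, n = 3) for the 6 genes called higher in memory (top row) and for a relative that was not called (bottom row), each axis starting at 0. In the top row all memory libraries lie above all naive libraries, and in the bottom row Ifit1 and Oasl1 overlap.

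Of the transcription factors that drive the response, 1 of 4 was called. Irf1, the factor that both interferons induce and that is abundant in resting lymphocytes, was at 82.24, 82.2 and 78.2 RPKM in naive and 91.19, 94.07 and 94.6 RPKM in memory libraries. The groups were apart by a small margin relative to the level. The mean rose from 80.9 ± 2.32 to 93.3 ± 1.83 RPKM, a log2 change of 0.2 (SE 0.04, limma adjusted p = 0.03). Leaving out any 1 of the 6 libraries ended this call (adjusted p from 0.0677 to 0.121).

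Irf7, which amplifies type I interferon production, was at 18.67, 17.6 and 18.12 RPKM in naive and 19.77, 20.46 and 21.21 RPKM in memory libraries. Irf9, the DNA-binding part of the factor it forms with STAT2, was at 13.56, 13.43 and 13.31 RPKM in naive and 15.68, 15.28 and 15.16 RPKM in memory libraries. In both genes memory lay above naive without overlap, and neither was called (log2 changes 0.17 and 0.18, adjusted p = 0.127 and 0.0774). Voom called Irf9 (adjusted p = 0.0463). Stat2 was at 9.23, 10.63 and 9.8 RPKM in naive and 11.5, 10.34 and 11.49 RPKM in memory libraries, with overlap (log2 change 0.15, adjusted p = 0.332). Exons of Irf9 overlap Rnf31 on the same strand, and those of Irf1 and Irf7 overlap other genes on the opposite strand. With the strand setting unknown, some reads may belong to those. Elsewhere in the list, exons of Dhx58, Oasl1 and Usp18 also overlap genes on the opposite strand.

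The sensors of viral nucleic acid were not called, 0 of 4 by limma or by voom, with 2 higher at an unadjusted p under 0.05. Over all 13793 genes tested, 1550 were higher at that unadjusted p. Ddx58, which encodes the RNA sensor RIG-I, was at 22.46, 21.39 and 21.27 RPKM in naive and 22.32, 21.22 and 22.33 RPKM in memory libraries. Zbp1, a sensor of Z-form nucleic acid that can start cell death, was at 26.98, 27.72 and 29.53 RPKM in naive and 28.54, 28.29 and 27.85 RPKM in memory libraries. Both overlapped between groups, with log2 changes of 0.02 (SE 0.05, adjusted p = 0.904) and 0.01 (SE 0.05, adjusted p = 0.952) whose signs turned under median ratio scaling. Ifih1, the gene of the sensor MDA5, was at 3.45, 3.76 and 3.41 RPKM in naive and 4.18, 4.06 and 4.33 RPKM in memory libraries. Dhx58, the gene of LGP2, a regulator of the other two RNA sensors, was at 2.89, 3.95 and 4.12 RPKM in naive and 5.24, 4.47 and 5.19 RPKM in memory libraries. These 2 did not overlap between the groups (log2 changes 0.19 and 0.37, adjusted p = 0.237 and 0.191).

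Isg15, the ubiquitin-like protein gene that interferon induces strongly in most cells, was at 23.77, 16.26 and 16.21 RPKM in naive and 19.24, 20.68 and 18.39 RPKM in memory libraries. Naive replicate 1 was above all memory libraries and the other 2 naive libraries were below them. The log2 change was 0.07 (SE 0.14, adjusted p = 0.859), and without naive replicate 1 the adjusted p was 0.147. Usp18, which encodes the protease that removes ISG15 and damps IFNAR2 signalling, was at 1.86, 2.56 and 2.2 RPKM in naive and 2.95, 2.98 and 3.12 RPKM in memory libraries. Its groups were apart and it was not called (log2 change 0.33, SE 0.1, adjusted p = 0.159).

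The other antiviral effectors included no call by limma among 5 tested (2 higher at an unadjusted p under 0.05, and 2 by voom). Over all 13793 genes tested, 1550 were higher at that unadjusted p, and voom called 5.76% higher. Rsad2, which encodes viperin, an enzyme that makes a chain-terminating nucleotide, was at 0.91, 0.59 and 0.7 RPKM in naive and 1.13, 1.61 and 1.75 RPKM in memory libraries. Its groups did not overlap, and the log2 change of 0.52 (SE 0.14) missed the threshold (limma adjusted p = 0.11), while voom called it (log2 change 1.03, adjusted p = 0.00621). Trim30a, a ubiquitin ligase gene of the mouse TRIM cluster, was at 42.39, 42.44 and 45.48 RPKM in naive and 48.17, 48.74 and 48.17 RPKM in memory libraries, with no overlap (log2 change 0.15, adjusted p = 0.106, by voom 0.0419).

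The exonuclease gene Isg20 was at 4.69 to 5.85 RPKM over all libraries, and its sign turned under quantile normalization. The chaperone gene Rtp4 and the apoptosis-linked gene Xaf1 were at 8.65 and 5.58 RPKM in naive and 9.58 and 6.17 RPKM in memory libraries, with adjusted p of 0.442 and 0.395. Ifi44 had 40 to 74 reads in naive and 43 to 92 reads in memory libraries, and the groups overlapped.

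The LY6 surface proteins are anchored by lipid, and Ly6a (Sca-1) also marks activated lymphocytes. Ly6a (chromosome 15, 74994877 to 74998031) was at 3.06, 2.04 and 2.4 RPKM in naive and 5.04, 4.15 and 4.22 RPKM in memory libraries. The groups did not overlap, and the log2 change was 0.65 (SE 0.13, limma adjusted p = 0.0433). With 1 library omitted, the call was kept when that was naive replicate 1 (adjusted p = 0.0334) and ended in the other 5 cases (up to 0.125). It also ended with no filter (0.0956) and under quantile normalization (0.0601). Ly6e, whose product restricts entry of coronaviruses, was among the most abundant of the list, at 72.99, 67.89 and 66.56 RPKM in naive and 75.18, 80.27 and 81.13 RPKM in memory libraries. Its groups were apart by a small margin and it was not called by limma (log2 change 0.19, SE 0.05, adjusted p = 0.105), while voom called it (adjusted p = 0.00627).

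Ratios above 2 were found mostly among genes of low naive level. Of 12 genes at 10 RPKM or more in naive libraries, the ratio of memory to naive means was between 1.01 and 1.49, with a median of 1.13. Of 13 genes between 2 and 10 RPKM it was between 0.935 and 7.96, with a median of 1.12. Of 7 genes under 2 RPKM it had a median of 2.04, and Rsad2, Ifitm2, Oasl2 and Oas2 were at or above that value. Low genes rest on fewer reads and vary more between libraries, so this is a description without a test.

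**Figure D4:**
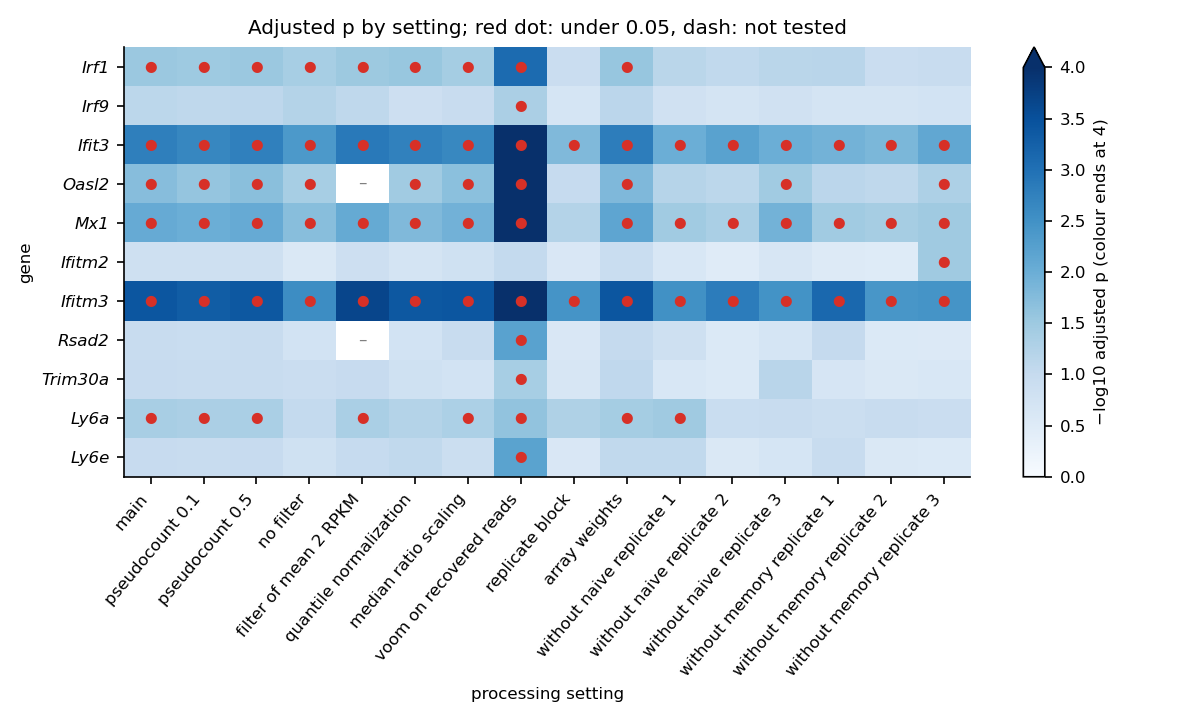
Adjusted p (colour, −log10) of the 11 tested genes called under at least 1 setting, for the analysis as reported (main) and 15 other settings, with red dots where it is under 0.05 and a dash where a gene was not tested. Ifit3 and Ifitm3 were called in every column, Mx1 in every column but the replicate block.

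Upstream of the list, the feedback inhibitor gene Socs3 rose from 5.24 to 7.79 RPKM (log2 change 0.49, limma adjusted p = 0.0359, called in 1 of the 6 cases with a library omitted). The feedback inhibitor gene Socs1 was at 11.9 RPKM in naive and 10.7 RPKM in memory libraries and was not called (log2 change -0.14, limma adjusted p = 0.593). The receptor chains and kinases Ifnar1, Ifnar2, Jak1 and Tyk2, named for their role after values had been seen, were at 15.2, 35.5, 129 and 13.1 RPKM in naive and 16.2, 39.5, 126 and 15.8 RPKM in memory libraries. None was called by limma, with Tyk2 at an adjusted p of 0.083. Voom called Tyk2 (log2 change 0.27, adjusted p = 0.00335) and not the others. Of the interferon genes themselves, 3 were analysed. Ifnk and Ifnz, which are of type I, had at most 2 reads in any library and were not tested. Ifng was at 19.4 RPKM in naive and 22.6 RPKM in memory libraries and was not called (adjusted p = 0.187).

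Of 11 sensor adaptors and kinases, 2 were called higher and none lower (at an unadjusted p under 0.05 and by voom also 0 lower). Over all genes tested, 3.2% were called higher and 0.972% lower. The median log2 change was 0.12 in these 11 and 0.02 over all genes tested. Ikbke, the kinase gene that interferon induces, rose from 6.11 to 9.71 RPKM (log2 change 0.59, adjusted p = 0.00547). Irf5, a factor prominent in macrophages, rose from 15.3 to 21.9 RPKM (log2 change 0.49, adjusted p = 0.0094). Both calls held with each library left out.

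In a longer list of 62 further interferon-stimulated genes tested, 12 were called higher and 2 lower, with a median log2 change of 0.1. Over all genes tested, 3.2% were called higher and 0.972% lower, with a median of 0.02. Of the genes called higher, Fcgr1 (0.241 to 1.71 RPKM) passed the filter through its memory libraries. Fcgr1 and Ly6c2, both called, are also on the list of macrophage and monocyte markers. On the log2(RPKM + 1) scale the largest rises were those of Plac8 (1.01 to 8.69 RPKM), Ifi204 (4.92 to 19.4 RPKM), Ifi205 (0.717 to 4.49 RPKM) and Slfn1 (1.99 to 6.88 RPKM), and the calls of these 4 held with each library left out. Monocytes and macrophages express Plac8 and Ifi204 strongly, and their marker list rose in the same libraries. The part of these cells in the 4 rises was not tested. The ubiquitin ligase gene Dtx3l fell from 33.5 RPKM in naive libraries (log2 change -0.72, adjusted p = 0.00167) and Epsti1 from 816 to 719 RPKM (log2 change -0.18, adjusted p = 0.0207, lost with any library left out). Of 25 genes linked to interferon-gamma, 9 were called higher and none lower (at an unadjusted p under 0.05 and by voom also 0 lower), with a median of 0.19, read against the same shares over all genes. Among them the immunity-related GTPase gene Tgtp1 rose from 21.9 to 30.5 RPKM, the guanylate-binding protein gene Gbp4 from 55.3 to 68.2 RPKM and the MHC class II transactivator gene Ciita from 0.468 to 2.39 RPKM, a gene that passed the filter through its memory libraries.

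**Figure D5:**
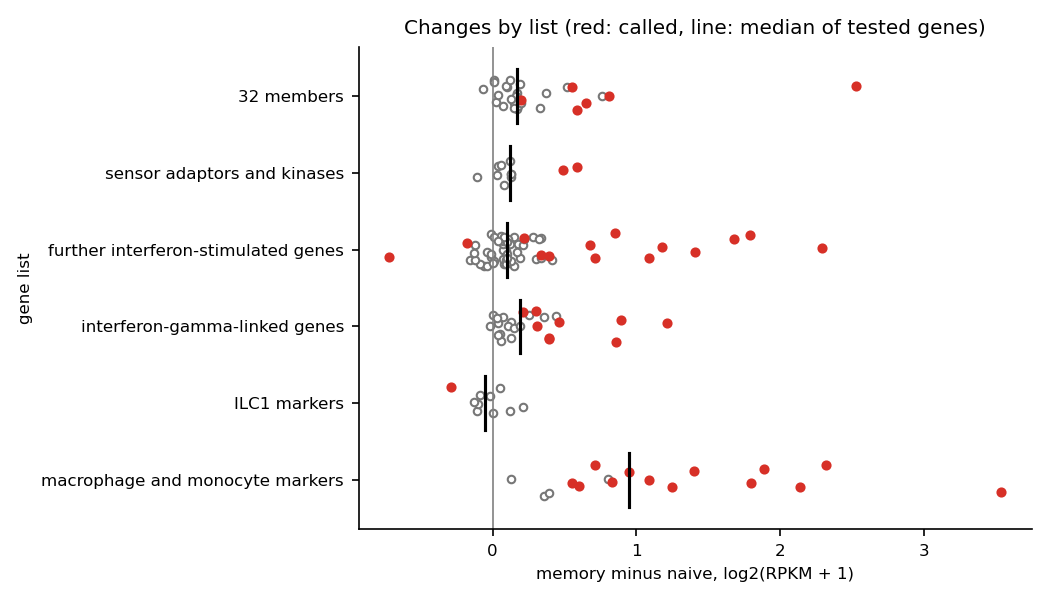
Change of each tested gene (memory less naive, log2(RPKM + 1)) in the list of 32 and in lists of its pathway and of cell types, with called genes in red and the median of each list as a black line. The macrophage and monocyte markers lie farthest to the right, with a median of 0.95 against 0.17 for the list of 32. The ILC1 markers have a median of -0.06. Fcgr1 and Ly6c2 are drawn both among the macrophage and monocyte markers and among the further interferon-stimulated genes.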

How the data were processed

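RNA was sequenced in bulk from 3 naive and 3 memory libraries. The authors deposited 1 table of RPKM values, which scale reads by exon length and by library size, with an exon length per gene. Tools listed without roles in the submitters' processing notes are edgeR 3.12.1, Subread 1.5.1, featureCounts and STAR 2.5.3a, with the build mm10. The sources used here do not give strand use in counting.

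Values were taken as deposited. Whole reads were recovered from the smallest step in each library (100% of non-zero values within 0.001 of a whole number). Of counts from 1 to 10, 69.8 to 72.3% were even, so both mates of a read pair may have been counted, and read numbers then overstate the fragments behind a value. limma-trend (limma 3.58.1, R 4.3.3) was fitted to log2(RPKM + 1) for the 13793 genes averaging 0.5 RPKM or more, with Benjamini-Hochberg adjustment over all of them, and was tested on simulated data. All 32 members are named, from other lists the called genes or those with the smallest adjusted p. Alternatives were pseudocounts of 0.1 and 0.5, quantile normalization, median ratio scaling, a filter of 2 RPKM, no filter, voom on recovered reads, the replicate number as a block, array weights, and each library left out. The members and lists were chosen with earlier results of these data known, so no p-value over the list alone is given. Of 19 interferon genes listed, 3 were analysed here. A result on the receptor and signalling list is not reported here. Promoter windows are RefSeq's (GRCm38.p6, 250 bases before to 50 after a start). Tables and plots used Python 3.11.15, pandas 2.3.3 and matplotlib 3.10.9.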

Additional observations from a re-analysis of the deposited data

How the results depend on the processing

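Over 15 alternatives, the log2 changes of the 29 tested genes gave 432 values. In 392 the direction and the side of the threshold were those reported, in 21 a call was lost, in 5 one was gained and in 14 the sign turned. The turned signs were all of genes with changes of at most 0.07. They were Ddx58 (-0.003 under quantile normalization, -0.006 under median ratio scaling), Zbp1 (-0.013 under median ratio scaling, and -0.019 to 0.044 with a library left out, lowest without naive replicate 1) and Oas3 (-0.038 under quantile normalization, -0.009 under median ratio scaling, -0.003 with array weights, and -0.046 to 0.062 with a library left out, lowest without naive replicate 3). The others were Isg15 (-0.016 and -0.018 without naive replicate 2 and 3, and up to 0.244 without naive replicate 1) and Isg20 (-0.004 under quantile normalization, and -0.006, -0.001 and -0.012 without naive replicate 1, memory replicate 1 and memory replicate 2, and up to 0.122 without memory replicate 3). The count of genes in the list called higher was 10 with voom on recovered reads and 3 to 5 with a library left out, when fewer libraries enter the fit. The count over all genes was 1141 with voom and 270 to 388 with a library left out. The list's median was 0.146 under quantile normalization, which shifts the median of all genes by -0.04, and 0.195 with voom. It was 0.155 to 0.191 with a library left out. With the replicate block, 2 genes of the list (Ifit3 and Ifitm3) and 271 genes in all were called (1.66% of all genes as higher). The block gave adjusted p of 0.0584 for Mx1, 0.122 for Irf1, 0.101 for Oasl2 and 0.0517 for Ly6a. Libraries of the same number did not deviate together (correlations -0.084, -0.04 and -0.003, against -0.078 to 0.109 for different numbers), so no pairing was seen. With 3 libraries per group, and labels that do not say what a number means, these values cannot decide whether the libraries were paired. No alternative called a gene of the list lower. Genes under about 1 RPKM rest on few reads, which limits what can be seen for Oas2, Ifitm1 and Mx2.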

Other observations

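Some relatives of the 32 genes also differed between the groups, and they were picked by family name after values had been seen. Ifitm6, an IFITM gene known from myeloid cells, was at 0.0724 RPKM in naive and 1.94 RPKM in memory libraries (log2 change 1.46, limma adjusted p = 0.00126), on 0, 4 and 0 reads in naive libraries, so that it passed the filter through the memory libraries alone. Ifitm10, which lies apart in sequence from the antiviral members, was at 7.86 and 7.46 RPKM and was not called (adjusted p = 0.803). In the LY6 cluster, Ly6c2, a marker of inflammatory monocytes that memory lymphocytes also carry, was at 1.2 and 2.58 RPKM (adjusted p = 0.0205). That call was kept in 1 of 6 cases with a library left out (adjusted p up to 0.0847) and ended with no filter (0.0554).

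Among plasmacytoid dendritic cell markers, a cell type known for type I interferon, Siglech was at 0.0805 RPKM in naive and 1.08 RPKM in memory libraries and was called (adjusted p = 0.025), while the other 4 tested were not. Siglech had 8, 6 and 2 reads in naive libraries and passed the filter through the memory libraries alone. Its call was lost in each of the 5 cases with a library left out in which it was still tested.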
